A study of Mus musculus with 4 samples.

Results

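The galactolipid and sphingolipid synthesis enzymes are 9 mouse genes, Ugt8a, Gal3st1, Fa2h, Cers2, Sptlc2, Degs1, Elovl1, Elovl7 and Aspa, out of 21883 protein-coding genes with an interval in the annotation. They were chosen by name, for their part in making the lipids of myelin, with earlier results of these data known. For each gene the peaks of open chromatin were collected inside the gene interval plus 2 kb on each side, called the gene window below, and in flanks that run a further 50 kb outward from both edges of that window. All 9 genes had peaks in their window and in their flanks in every library, and all 9 passed the filter on low coverage in both.

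The assay was Omni-ATAC-seq. The transposase Tn5 cuts accessible DNA in isolated nuclei and tags it for sequencing. It was run on 2 libraries of oligodendrocytes (OLs) and 2 libraries of oligodendrocyte progenitor cells (OPCs). The OLs carried the surface antigen O1 and were collected by sorting. The OPCs grew in medium with bFGF and PDGFA, each at 20 ng/mL. Each cell type was made from 2 lines of mouse epiblast stem cells, 129O1 and EpiSC5, so each line gave 1 OL and 1 OPC library. The lines come from the strains 129SvEv and 129S1/SvImJ, and the labels do not state which line from which strain. All groups share the same origin: the OPCs of both lines were made and kept without SHH, were purified after 4 passages by sorting for CD140a and NG2, and were then expanded and frozen. For each library 50000 cells were used, transposition lasted 30 min at 37 °C, and single-end reads of 50 bp were taken, with a stated yield of 100 M reads for each library. Whether the libraries of a line come from separate cultures or differentiations is not stated in the labels, so p-values measure only the spread between these 4 libraries. The cells are cultured derivatives of pluripotent stem cells and not cells taken from brain.

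Galactosylceramide and its sulfated form, sulfatide, are glycolipids that oligodendrocytes make in bulk and that give myelin much of its lipid character. Their synthesis begins with the condensation of serine and palmitoyl-CoA, runs through dihydroceramide and ceramide carrying a very long, often hydroxylated fatty acid, and ends with the transfer of galactose and then sulfate. The O1 antibody binds mainly galactosylceramide, the product of the enzyme encoded by Ugt8a, so the OLs were sorted on a product of the same pathway.

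The 4 peak lists held 127196 and 152595 peaks in the 129O1 and EpiSC5 OL libraries, against 129534 and 125002 peaks in the OPC libraries of 129O1 and EpiSC5. The peaks covered 35.0 and 41.2 Mb in the OL libraries, against 38.6 and 44.1 Mb in the OPC libraries. Coverage below is therefore given as scaled kb, the base pairs under peaks after scaling every list to the same total. Over all tested genes, 1602 gene windows were higher and 1255 lower in OL after scaling, against 197 higher and 386 lower with no scaling. In the flanks 1619 were higher and 1765 lower after scaling, against 469 higher and 1509 lower with no scaling and 1736 higher and 1407 lower with median-of-ratios scaling. Leaving the scaling out moved the median difference of all gene windows to -0.13, from -0.02 on the log2 scale with it. Of 11 tested oligodendrocyte markers, 6 had higher gene-window coverage in OL, where 11.0% of all tested genes were called higher and 8.63% lower. Of 9 OPC markers 1 was higher and 1 lower, and their summed coverage was 26.9 and 28.1 scaled kb in the OL libraries, against 25.1 and 24.7 scaled kb in the OPC libraries. Summed over their list, the oligodendrocyte markers covered 22.5 and 22.7 scaled kb in the OL libraries, against 11.7 and 14.4 scaled kb in the OPC libraries. Markers of other cell types also differed: 5 of 7 tested vascular and mesenchymal markers were lower in OL, and their summed coverage was 6.09 and 7.05 scaled kb in the OL libraries, against 13.4 and 12.4 scaled kb in the OPC libraries. Of 10 astrocyte markers 4 were lower in OL, with 15.0 and 15.7 scaled kb in the OL libraries against 18.5 and 19.2 scaled kb in the OPC libraries, and of 10 neuron markers 4 were lower, with 30.2 and 29.2 scaled kb in the OL libraries against 30.2 and 34.4 scaled kb in the OPC libraries. Of 6 pluripotency markers, 3 had peaks in both OL and both OPC libraries, with 4.87 and 3.36 scaled kb in the OL libraries against 5.30 and 5.12 scaled kb in the OPC libraries over the list, and Pou5f1, Zfp42 and Dppa4 had no peak in any library. Of 9 microglial markers 7 had peaks in both OL and 5 in both OPC libraries, with 5.54 and 5.62 scaled kb in the OL libraries against 5.53 and 5.15 scaled kb in the OPC libraries, and Trem2 had none. Of 10 vascular and mesenchymal markers only Cldn5 had no peak in any library. The part of these differences in the results below was not tested, and in such bulk libraries fewer cells of a type and less open chromatin per cell cannot be told apart.

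The promoter windows, 250 bases before to 50 bases after an annotated transcript start, were read from a RefSeq table of GRCm38.p6, the assembly named mm10. The table held 12 windows for 8 of the 9 genes and none for Fa2h. Of these windows, 8 overlapped a peak in all 4 libraries, 3 in 1 to 3 libraries and 1 in no library. Among the 8, the Gal3st1 windows chr11:3983386-3983685 and chr11:3983401-3983700 overlap each other and were counted separately. Over all 21262 promoter windows, 53.5% overlapped a peak in all 4 libraries and 38.2% in none. The windows printed here show the range: those of Ugt8a and Sptlc2, which lay wholly under a peak in every library although their gene windows differed between OL and OPC, both windows of Elovl1, of which 1 was covered in every library and the other in none, and that of Aspa, which was covered in part of the libraries. Capitals mark matches on either strand to the GC box GGGCGG, the CCAAT box CCAAT and the E-box CAGCTG, and touching or overlapping matches run together.
Ugt8a, chr3:125938603-125938902, minus strand: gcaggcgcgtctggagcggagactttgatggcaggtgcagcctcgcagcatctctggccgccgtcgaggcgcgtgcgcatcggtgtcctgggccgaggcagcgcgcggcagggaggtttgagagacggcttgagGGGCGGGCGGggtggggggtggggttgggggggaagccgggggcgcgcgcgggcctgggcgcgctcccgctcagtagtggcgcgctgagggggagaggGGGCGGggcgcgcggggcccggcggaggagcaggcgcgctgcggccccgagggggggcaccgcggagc
Sptlc2, chr12:87388306-87388605, minus strand: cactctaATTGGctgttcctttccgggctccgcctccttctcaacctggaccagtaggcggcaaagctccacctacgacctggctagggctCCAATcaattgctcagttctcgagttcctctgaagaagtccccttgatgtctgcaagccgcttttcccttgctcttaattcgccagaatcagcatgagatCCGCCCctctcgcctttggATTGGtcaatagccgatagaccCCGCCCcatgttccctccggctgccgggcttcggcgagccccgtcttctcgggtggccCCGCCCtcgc
Elovl1, chr4:118427843-118428142, plus strand: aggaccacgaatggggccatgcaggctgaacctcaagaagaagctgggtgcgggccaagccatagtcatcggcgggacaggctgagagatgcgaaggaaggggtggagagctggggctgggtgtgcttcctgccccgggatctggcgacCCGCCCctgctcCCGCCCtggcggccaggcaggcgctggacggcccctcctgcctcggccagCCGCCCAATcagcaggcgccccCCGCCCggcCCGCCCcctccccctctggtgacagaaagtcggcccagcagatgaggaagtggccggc
Elovl1, chr4:118429451-118429750, plus strand: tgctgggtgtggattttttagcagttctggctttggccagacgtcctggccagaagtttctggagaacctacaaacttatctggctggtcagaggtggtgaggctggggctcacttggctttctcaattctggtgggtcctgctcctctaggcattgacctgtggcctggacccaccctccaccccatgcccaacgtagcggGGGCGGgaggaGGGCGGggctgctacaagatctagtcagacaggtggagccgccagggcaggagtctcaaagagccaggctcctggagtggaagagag
Aspa, chr11:73324588-73324887, minus strand: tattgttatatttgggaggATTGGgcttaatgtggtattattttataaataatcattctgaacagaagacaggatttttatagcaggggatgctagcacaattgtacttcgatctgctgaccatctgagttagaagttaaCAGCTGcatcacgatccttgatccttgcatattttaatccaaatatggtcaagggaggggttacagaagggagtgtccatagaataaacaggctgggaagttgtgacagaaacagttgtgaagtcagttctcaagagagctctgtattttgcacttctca

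The Ugt8a window was 78.3% G and C with 40 CpG dinucleotides and 3 GC boxes, whereas the Aspa window was 39.0% G and C with 2 CpG dinucleotides, 1 E-box and 1 CCAAT box. The medians over the 21005 promoter windows of distinct sequence were 56.7% and 13 CpG dinucleotides. Sptlc2 had 3 GC boxes and 3 CCAAT boxes, the Elovl1 window under peaks had 5 GC boxes, 1 of them overlapping its CCAAT box, and the Elovl1 window with no peak had 2 GC boxes. Of these 21005 distinct promoter windows, 46.6% held GGGCGG, 38.1% CCAAT and 15.7% CAGCTG. The letters ACAAAG, as bound by Sox factors, and TCACNCCAC, the core of the sterol regulatory element, were in none of the 12 windows. They were in 16.8% and 1.18% of the 21005 distinct promoter windows.

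In the gene windows, coverage by peaks was higher in OL than in OPC at 3 genes that act at separate steps of the pathway: Sptlc2 at its entry, Fa2h at the hydroxylation of the fatty acid and Ugt8a at the addition of galactose. None of the 9 was lower. At an unadjusted p under 0.05, Gal3st1 and Aspa were higher too and again none was lower. The share of all tested genes at that looser threshold was not computed, so these additions have no background to be read against. The differences were 1.88-fold at Ugt8a, 1.73-fold at Sptlc2 and 1.37-fold at Fa2h, on the log2 scale after adding 200 bp. The call at Fa2h sat at the threshold (limma adjusted p of 0.0482) and was kept in 3 of 13 other settings. The 3 genes higher in OL are to be read against 11.0% of the 14540 tested genes called higher, 8.63% called lower and 19.6% called in either direction by the same rule (limma, Benjamini-Hochberg adjusted over all tested genes, threshold 0.05). Both OL libraries lay above both OPC libraries at 4 of the 9 genes, against 27.4% of all tested genes, and below both at none, against 28.1%. The median difference of the 9 genes was 0.41 on the log2 scale, beside -0.02 for all tested genes.

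**Figure D1:**
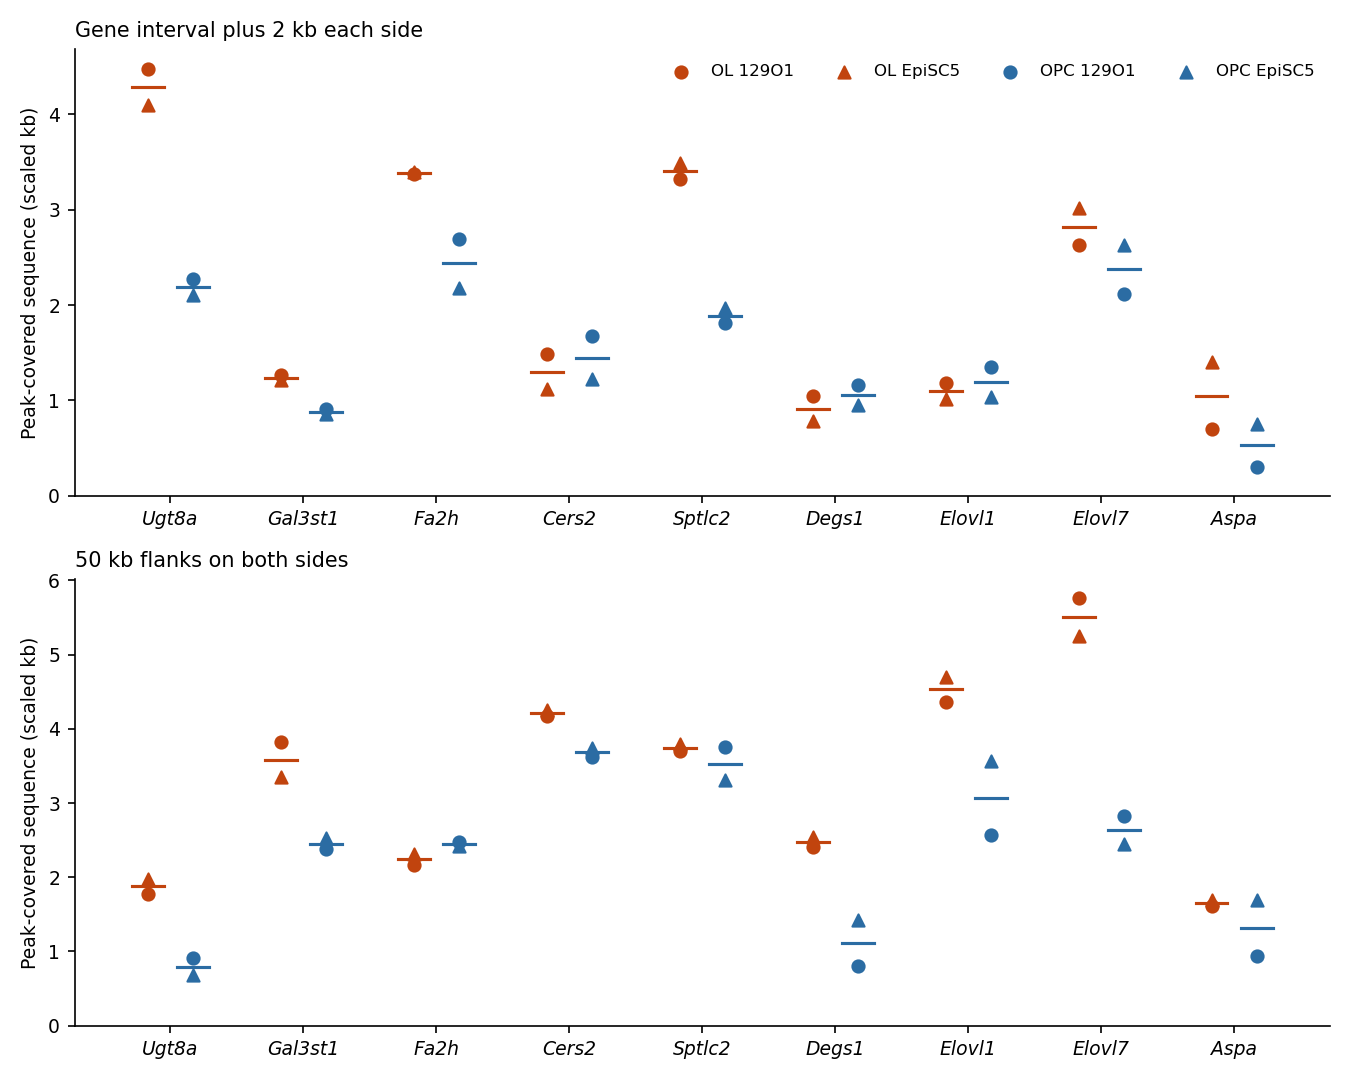
Peak-covered sequence in scaled kb (vertical axes) of each gene in the gene window (top) and in the 50 kb flanks (bottom), with circles for 129O1, triangles for EpiSC5 and a bar for the mean of the 2 OL or the 2 OPC libraries. Ugt8a, Sptlc2, Fa2h and Gal3st1 show OL points above both OPC points in the gene window, and Ugt8a, Gal3st1, Cers2, Degs1, Elovl1 and Elovl7 do so in the flanks.

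Sptlc2 encodes a catalytic subunit of serine palmitoyltransferase, which makes the first committed step of sphingolipid synthesis. It lies at chr12:87305058-87388355. Its window held 3.32 scaled kb of peaks in the 129O1 OL library and 3.49 in the EpiSC5 OL library, against 1.81 in the 129O1 OPC library and 1.97 in the EpiSC5 OPC library. Both OL libraries stood well above both OPC libraries, and the lines differed little. The means were 3.40 ± 0.122 scaled kb in OL and 1.89 ± 0.112 in OPC (SD, n = 2 each), a log2 difference of 0.79 with a standard error of 0.15 and a limma adjusted p of 0.00126. The number of peaks was 10 and 16 in the OL libraries, against 8 and 4 in the OPC libraries. The call at Sptlc2 was lost with no scaling (limma adjusted p of 0.0834), with the number of peaks (0.149) or with only the sequence around summits (0.0907).

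Degs1 and Cers2 act next. Degs1 encodes the desaturase that turns dihydroceramide into ceramide, and it lies at chr1:182275964-182282854. Its window held 1.04 and 0.786 scaled kb in the 129O1 and EpiSC5 OL libraries, against 1.16 and 0.952 in the OPC libraries of 129O1 and EpiSC5. The groups overlapped, with a log2 difference of -0.18 (95% interval -0.57 to 0.22, limma adjusted p of 0.608). Cers2 encodes the ceramide synthase that prefers very long fatty acids, and it lies at chr3:95314771-95323599. Its window held 1.48 and 1.12 scaled kb in the OL libraries, against 1.68 and 1.22 in the OPC libraries. These values overlapped as well, with a log2 difference of -0.13 (95% interval -0.51 to 0.25, limma adjusted p of 0.707), and 129O1 was above EpiSC5 in both cell types. The region over the start of Cers2, most of its covered sequence, also lies in the windows of Anxa9 and LOC115489748.

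The elongases supply the very long fatty acids. Elovl1, which extends saturated fatty acids to the lengths found in myelin, lies at chr4:118426874-118432953. It had 1.18 and 1.02 scaled kb in the 129O1 and EpiSC5 OL libraries, against 1.35 and 1.04 in the OPC libraries of 129O1 and EpiSC5. The groups overlapped, with a log2 difference of -0.09 (95% interval -0.47 to 0.28, limma adjusted p of 0.795). Elovl7, another elongase of saturated long fatty acids, lies at chr13:108214326-108287109 and had 2.63 and 3.01 scaled kb in the OL libraries, against 2.12 and 2.63 in the OPC libraries. The 129O1 OL library and the EpiSC5 OPC library met at the same level, and the log2 difference of 0.23 did not pass the threshold (95% interval -0.10 to 0.57, limma adjusted p of 0.361).

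Fa2h encodes the fatty acid hydroxylase that gives galactolipids their hydroxylated chains, and it lies at chr8:111345138-111393821. Its window held 3.37 and 3.40 scaled kb in the 129O1 and EpiSC5 OL libraries, against 2.69 and 2.18 in the OPC libraries of 129O1 and EpiSC5. The OL libraries were nearly equal and both above the OPC libraries, which differed from each other more. The means were 3.38 ± 0.0154 scaled kb in OL and 2.44 ± 0.359 in OPC (SD, n = 2 each), a log2 difference of 0.45 with a standard error of 0.16 and a limma adjusted p of 0.0482. This call sat at the threshold: with the cell line as a block the adjusted p was 0.0577, and it was 0.147 without the 129O1 OL library, 0.1603 without the EpiSC5 OL library and 0.310 without the EpiSC5 OPC library. Of 13 other settings tried, 3 kept the call at Fa2h.

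Ugt8a encodes the galactosyltransferase that makes galactosylceramide, and it lies at chr3:125865272-125938682. Its window held 4.47 and 4.10 scaled kb in the 129O1 and EpiSC5 OL libraries, against 2.27 and 2.10 in the OPC libraries of 129O1 and EpiSC5. Each OL library had almost double the coverage of the OPC library of its line, with no overlap. The means were 4.29 ± 0.263 scaled kb in OL and 2.19 ± 0.121 in OPC (SD, n = 2 each), a log2 difference of 0.91 with a standard error of 0.15 and a limma adjusted p of 0.000362. The difference was 0.92 within 129O1 and 0.90 within EpiSC5, also on the log2 scale. The number of peaks was 13 in each OL library, against 6 and 5 in the OPC libraries. Of all tested genes, 2.25% had a difference at least as high as that of Ugt8a. The call was lost when peaks were counted in place of base pairs (limma adjusted p of 0.0656).

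Gal3st1 encodes the sulfotransferase that turns galactosylceramide into sulfatide, and it lies at chr11:3983636-3999328. Its window held 1.26 and 1.22 scaled kb in the 129O1 and EpiSC5 OL libraries, against 0.911 and 0.857 in the OPC libraries of 129O1 and EpiSC5. The groups did not overlap, but the log2 difference of 0.41 did not pass the threshold (95% interval 0.05 to 0.77, limma adjusted p of 0.110). Aspa encodes aspartoacylase, which releases acetate from N-acetylaspartate in oligodendrocytes, and it lies at chr11:73304987-73326876. Its window held 0.696 and 1.40 scaled kb in the 129O1 and EpiSC5 OL libraries, against 0.3004 and 0.756 in the OPC libraries of 129O1 and EpiSC5. EpiSC5 lay above 129O1 in both cell types, so that the groups overlapped although OL was above OPC within each line, with log2 differences of 0.84 within 129O1 and 0.75 within EpiSC5. The log2 difference was 0.79 with a standard error of 0.30 and a limma adjusted p of 0.0715. With the cell line as a block the adjusted p was 0.0206, and it was 0.00915 without the 129O1 OL library and 0.00176 without the EpiSC5 OPC library, with log2 differences of 1.21 and 1.26.

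Per kb of window, the 3 shortest genes were the most densely covered. Elovl1 and Cers2 had 109 and 102 bp of peaks per kb in OL, against 119 and 113 bp per kb in OPC. Degs1 had 84.0 bp per kb in OL and 96.9 in OPC. Among the longer genes, Fa2h had 64.3 bp per kb in OL and 46.3 in OPC, Ugt8a 55.4 in OL and 28.3 in OPC, and Sptlc2 39.0 in OL and 21.6 in OPC. The 3 genes called higher in OL were among the 4 longest, with Elovl7.

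**Figure D2:**
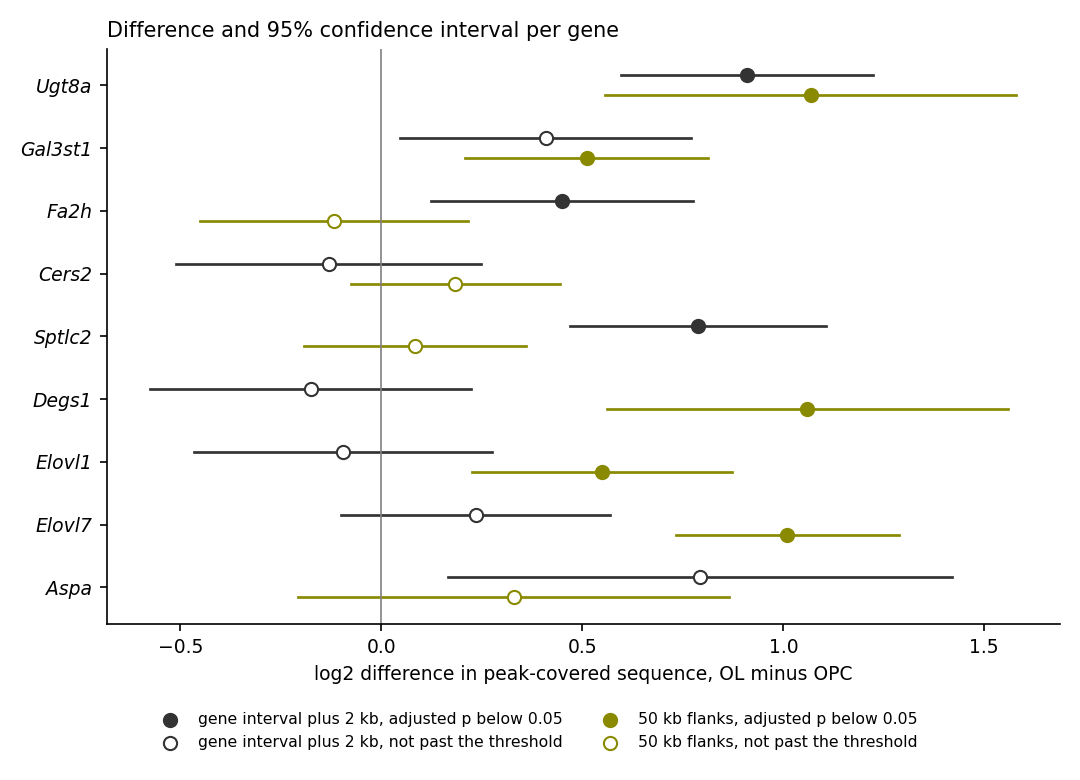
Log2 difference in peak-covered sequence, OL minus OPC (horizontal axis), for each gene in the gene window (dark) and in the 50 kb flanks (olive), with lines for the 95% confidence interval of limma and filled points for an adjusted p below 0.05. Ugt8a is the only gene with filled points for both windows. Sptlc2 and Fa2h are filled for the gene window alone, and Gal3st1, Degs1, Elovl1 and Elovl7 for the flanks alone.

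In the flanks, 5 of the 9 genes were higher in OL and none was lower, and apart from Ugt8a they were other genes than in the windows: Ugt8a, Degs1, Elovl7, Elovl1 and Gal3st1. The differences were 2.10-fold at Ugt8a, 2.09-fold at Degs1, 2.01-fold at Elovl7, 1.46-fold at Elovl1 and 1.43-fold at Gal3st1. Over all 17592 genes tested in their flanks, 9.2% were called higher, 10.0% lower and 19.2% in either direction. At an unadjusted p under 0.05 none of the 9 genes was lower either, and the share of all tested genes there was not computed. The median log2 difference of the 9 genes was 0.51, beside -0.04 for all tested genes. Both OL libraries lay above both OPC libraries at 6 genes and below them at 1, against 27.7% and 33.3% of all tested genes.

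Around Ugt8a the flanks held 1.77 and 1.98 scaled kb in the 129O1 and EpiSC5 OL libraries, against 0.915 and 0.678 in the OPC libraries of 129O1 and EpiSC5. The groups did not overlap, and the log2 difference was 1.07 with a standard error of 0.24 and a limma adjusted p of 0.00884. No other protein-coding gene lies in the flanks of Ugt8a. Around Gal3st1 the flanks held 3.82 and 3.35 scaled kb in the OL libraries, against 2.37 and 2.53 in the OPC libraries. That difference of 0.51 on the log2 scale (standard error 0.14, limma adjusted p of 0.0231) fell partly in Pes1 and Sec14l4, which share the sequence.

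Around Degs1 the flanks held 2.40 and 2.54 scaled kb in the 129O1 and EpiSC5 OL libraries, against 0.809 and 1.43 in the OPC libraries of 129O1 and EpiSC5. The groups did not overlap, and the log2 difference was 1.06 with a standard error of 0.23 and a limma adjusted p of 0.00804. Most of this came from a region 4951 bp beyond the start of Degs1, at chr1:182287806-182288928, which held 1052 and 1107 bp of peaks in the OL libraries, against no peak in the 129O1 OPC library and 192 bp in the EpiSC5 OPC library. When peaks were counted in place of base pairs the log2 difference fell to 0.07 (limma adjusted p of 0.901), and with only the sequence around summits it was also 0.07.

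Around Elovl7 the flanks held 5.76 and 5.24 scaled kb in the 129O1 and EpiSC5 OL libraries, against 2.82 and 2.45 in the OPC libraries of 129O1 and EpiSC5. All OL values were about double the OPC values, with a log2 difference of 1.01, a standard error of 0.13 and a limma adjusted p of 0.000642. Part of that sequence lies in Ercc8 and Depdc1b, and with the sequence of other genes left out the adjusted p was 0.0599. Around Elovl1 the flanks held 4.36 and 4.70 scaled kb in the OL libraries, against 2.58 and 3.56 in the OPC libraries, a log2 difference of 0.55 (standard error 0.15, limma adjusted p of 0.0225).

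The other 4 genes gave no call in the flanks. Cers2 had 4.18 and 4.25 scaled kb in the 129O1 and EpiSC5 OL libraries, against 3.62 and 3.75 in the OPC libraries of 129O1 and EpiSC5, without overlap (log2 difference 0.18, 95% interval -0.08 to 0.44, limma adjusted p of 0.308). Fa2h had 2.17 and 2.32 scaled kb in the OL libraries, against 2.48 and 2.42 in the OPC libraries, the reverse order (log2 difference -0.12, 95% interval -0.45 to 0.22, limma adjusted p of 0.633). Sptlc2 and Aspa overlapped between OL and OPC, with limma adjusted p of 0.685 and 0.379. Of the 5 flank calls, that of Elovl7 held when any library was left out. The call at Ugt8a was lost without the 129O1 OL library (limma adjusted p of 0.0586) and without the EpiSC5 OL library (0.0996), that at Degs1 likewise (0.0521 and 0.0623), that at Gal3st1 likewise (0.179 and 0.0658), and that at Elovl1 without the 129O1 OL library (0.0693), the EpiSC5 OL library (0.132) or the 129O1 OPC library (0.163). Under other settings the flank calls at Gal3st1 and at Elovl1 were each kept in 6 of 12, and with no scaling their limma adjusted p was 0.138 and 0.188.

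The peaks of the 4 lists were then merged into regions wherever they overlapped or touched. A region was called OL-only with a peak in both OL libraries and in neither OPC library, OPC-only in the converse case, and shared with a peak in all 4. The gene windows held 96 regions, of which 26 were OL-only, 8 OPC-only and 15 shared, and 47 had another pattern. OL-only regions were thus 27.1% of the regions of the 9 genes, against 16.8% of 141513 regions in any gene window, whereas OPC-only regions were 8.33% against 8.84% and shared regions 15.6% against 26.8%. The flanks held 117 regions, with 32 OL-only (27.4%), 6 OPC-only (5.13%) and 32 shared (27.4%), against 14.4%, 9.15% and 28.7% in the flanks of any gene. Among the best 50% of each list by q the 9 windows held 43 regions, and 9 of them (20.9%) were OL-only, against 16.9% in all gene windows.

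**Figure D3:**
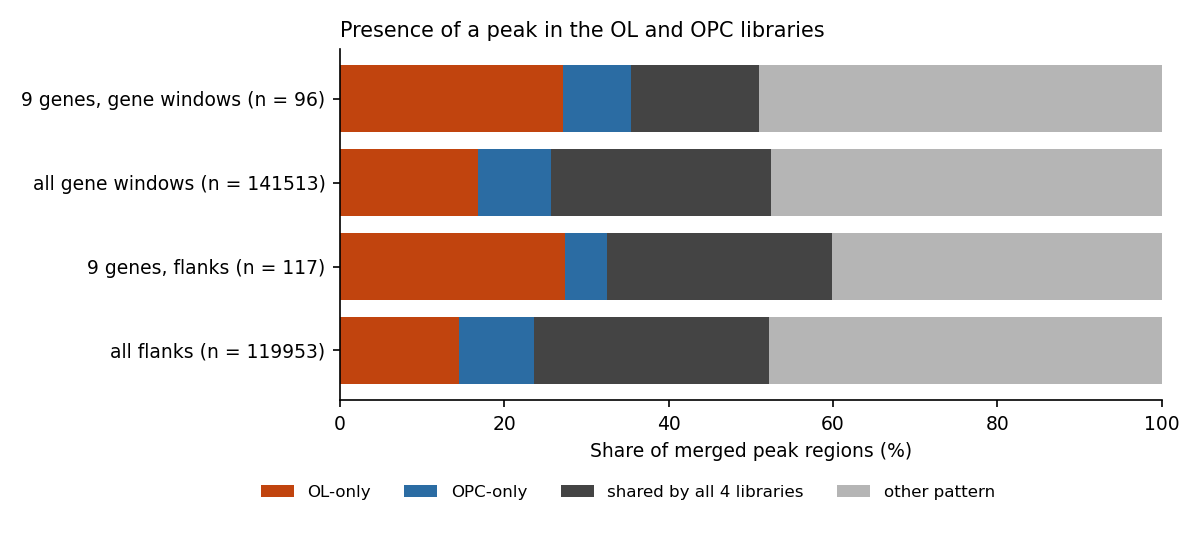
Share of merged peak regions in percent (horizontal axis) by the libraries that hold a peak, for the windows and flanks of the 9 genes and, under each, for all genes, with the number of regions in brackets. The OL-only part is 27.1% and 27.4% for the 9 genes, against 16.8% and 14.4% for all genes.

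The OL-only regions of the gene windows were smaller than the shared ones and had lower folds. They had a median width of 215.5 bp, against 855 bp for the shared regions. Over all regions of the merged lists the medians were 233 bp for OL-only and 471 bp for shared regions. The OL-only regions of these windows were thus close in width to OL-only regions in general. The fold enrichment over background that the authors' peak caller gave the OL-only regions was taken from the highest peak of each region. It had a median of 5.33 in the 129O1 OL library and 6.31 in the EpiSC5 OL library. Those medians are below the medians of the whole lists, 6.68 and 6.84. The shared regions had median folds of 9.08 and 9.50 in the OL libraries, against 8.73 and 10.8 in the OPC libraries. In the flanks the OL-only regions had median folds of 6.18 in the 129O1 OL library and 7.81 in the EpiSC5 OL library, against 7.95 and 7.38 for the shared regions in these libraries, so that in EpiSC5 the order was the other way. Absence of a peak means only that none passed the caller's threshold in that library.

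Ugt8a had 6 OL-only and no OPC-only regions among the 16 in its window, and 4.83% of all genes, whatever their length, had at least as many OL-only regions. All 6 lay inside the gene, between 7759 and 68289 bp from its start. The widest was chr3:125929682-125930059, with 208 and 378 bp of peaks in the 129O1 and EpiSC5 OL libraries and no peak in either OPC library. The next was chr3:125917987-125918350, with 226 and 348 bp in the OL libraries. A further region, chr3:125870537-125871151, was among the strongest of the window with 615 and 584 bp at folds of 8.93 and 8.24 in the OL libraries, against no peak in the 129O1 OPC library and 116 bp in the EpiSC5 OPC library. The shared region over the start of Ugt8a, chr3:125937610-125939119, held 1388 and 1277 bp in the OL libraries, against 1430 and 1482 bp in the OPC libraries.

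Sptlc2 had 5 OL-only and no OPC-only regions among 18, and 6.51% of all genes, whatever their length, had at least as many OL-only regions. Of these, 4 lay between 40061 and 50740 bp from the start and the fifth at 6836 bp. The widest, chr12:87341129-87341474, had 295 and 333 bp of peaks at folds of 7.85 and 7.65 in the 129O1 and EpiSC5 OL libraries and no peak in either OPC library. A shared region inside Sptlc2, chr12:87365572-87366002, was covered over 427 and 408 bp in the OL libraries, against 142 and 353 bp in the OPC libraries. Fa2h had 4 OL-only regions, 1 OPC-only region and 4 shared regions among 15. Its widest OL-only region, chr8:111364908-111365341, had 261 and 434 bp in the OL libraries. Its OPC-only region, chr8:111360830-111361211, had 382 and 369 bp in the OPC libraries, at folds of 14.1 and 9.95. A shared region, chr8:111353462-111354094, had 591 and 584 bp in the OL libraries, against 269 and 286 bp in the OPC libraries.

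Elovl7 had the most regions of either class, 8 OL-only and 5 OPC-only among 21, while its summed coverage gave no call. Of all genes, whatever their length, 2.98% had at least as many OL-only regions, and 2.6% had at least as many OPC-only regions. These ranks, like those of Ugt8a and Sptlc2, were not adjusted for window length. The windows of Elovl7, Ugt8a and Sptlc2, at 76.8, 77.4 and 87.3 kb, are the longest of the 9. The 2 classes did not intermingle. The centres of the OL-only regions lay from -480 to 37460 bp relative to the start of Elovl7, and the centres of the OPC-only regions lay from 39823 to 62398 bp. This division was noticed after the values were seen and was not tested. The strongest OL-only region, chr13:108232540-108232796, had 235 and 236 bp at folds of 10.3 and 10.4 in the 129O1 and EpiSC5 OL libraries. The flanks of Elovl7 held another 10 OL-only regions and no OPC-only region among 20.

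**Figure D4:**
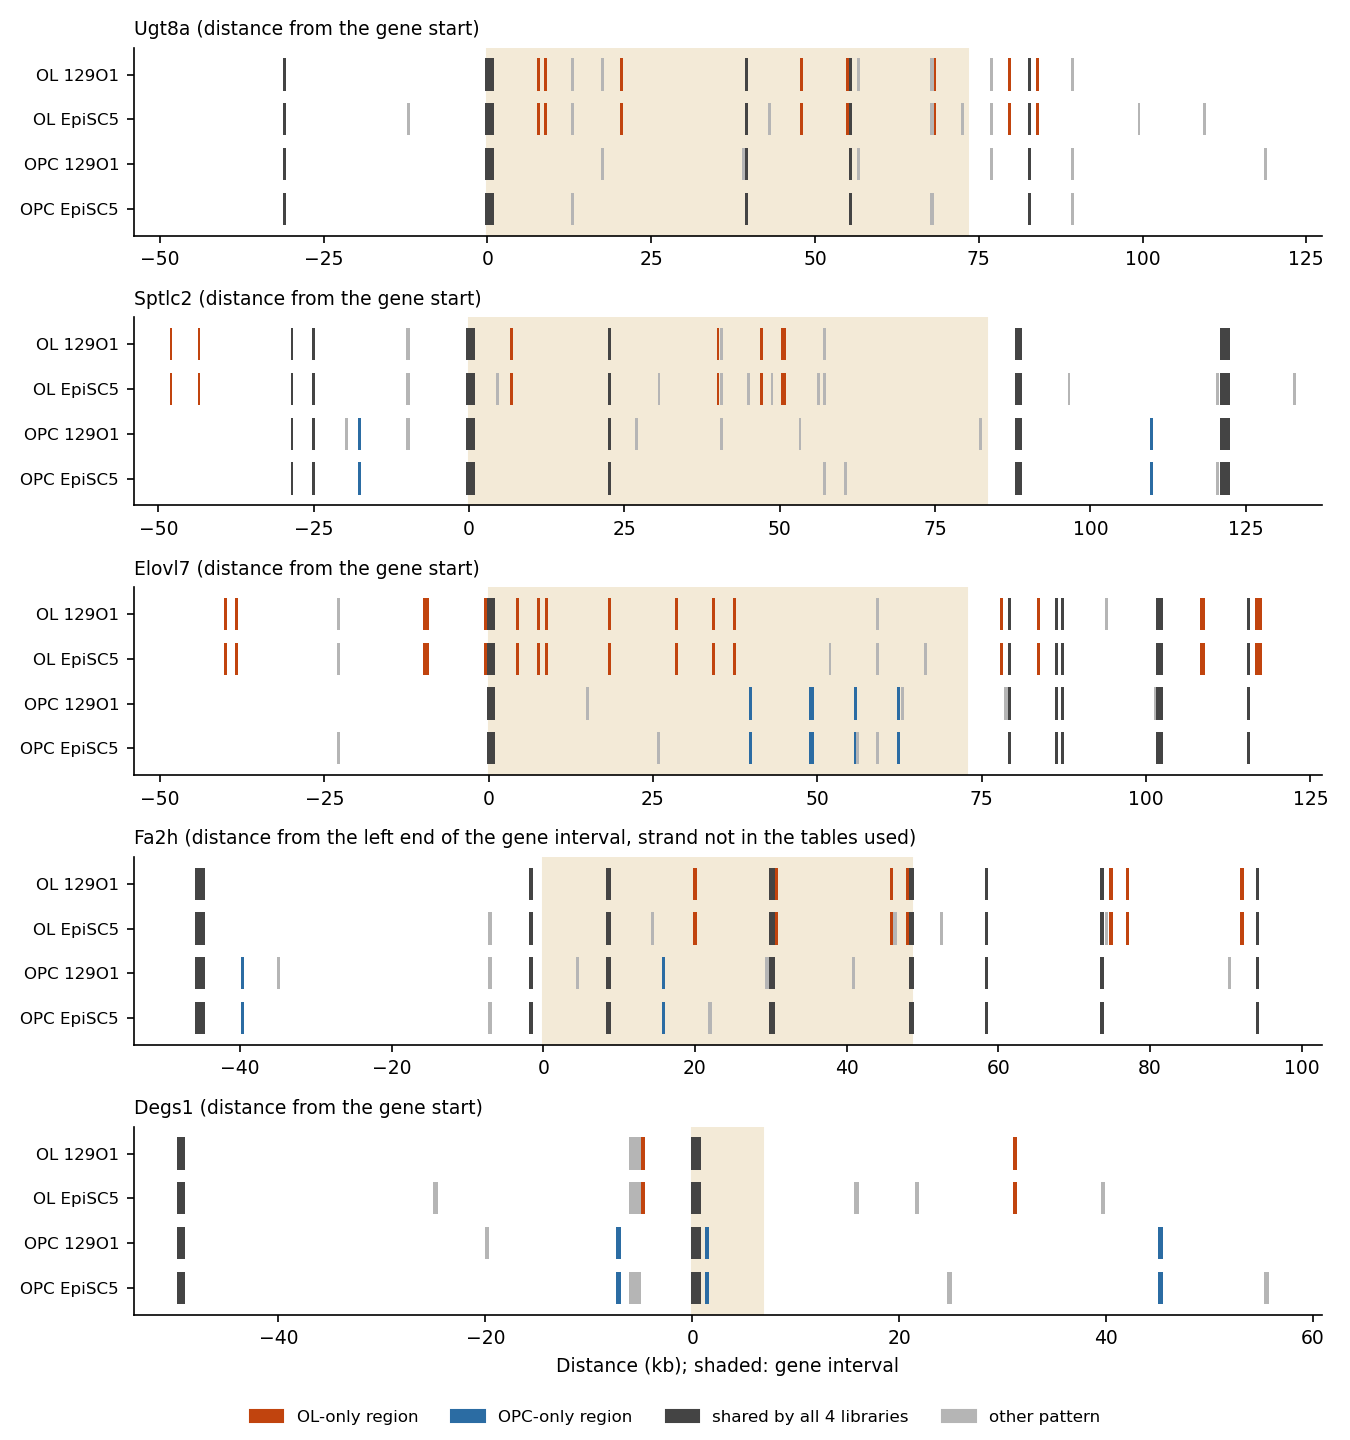
Merged peak regions along Ugt8a, Sptlc2, Elovl7, Fa2h and Degs1 and their flanks, in kb from the gene start (for Fa2h, whose strand was not in the tables used, from the left end), with 1 row per library, OL above OPC, and the gene interval shaded. Narrow regions are drawn at a minimum width. OL-only marks lie in the gene interval of Ugt8a, Sptlc2, Elovl7 and Fa2h and in the flanks of all 5 genes. Inside Elovl7 they lie in the first part of the gene and the OPC-only marks in the later part.

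The remaining genes had few OL-only or OPC-only regions. Gal3st1 had 1 OL-only region of 5, chr11:3987283-3987507, with 162 and 225 bp in the 129O1 and EpiSC5 OL libraries. Cers2 had 1 of 7, chr3:95322596-95322868, with 194 and 273 bp at folds of 5.35 and 9.79 in the OL libraries. That region also lies in the window of Setdb1. Degs1 had only the shared region over its start and 1 OPC-only region, chr1:182281361-182281504, with 144 and 100 bp in the OPC libraries of 129O1 and EpiSC5. Elovl1 had 1 region in all, shared by the 4 libraries. Aspa had 1 OL-only region, chr11:73327420-73327795, which also lies in the window of Spata22, and 1 OPC-only region, chr11:73318518-73318831, among 11. In the flanks of Elovl1, the OL-only region chr4:118419702-118420111 had 410 and 382 bp in the OL libraries.

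The difference between OL and OPC at Ugt8a and Sptlc2 lay away from the gene start. Outside the region over its start, Ugt8a held 2555 and 2975 bp of unscaled peak sequence in the 129O1 and EpiSC5 OL libraries, against 781 and 852 bp in the OPC libraries of 129O1 and EpiSC5. Sptlc2 held 1679 and 2296 bp outside its start region in the OL libraries, against 521 and 726 bp in the OPC libraries. Fa2h, outside the region at the right end of its interval, held 2433 and 2995 bp in the OL libraries, against 1999 and 1854 bp in the OPC libraries. Gal3st1, which gave no call in its gene window, held 162 and 479 bp outside its start region in the OL libraries, against 78 bp in the 129O1 OPC library and none in the EpiSC5 OPC library. For Elovl7 the same sum was 1482 and 2211 bp in the OL libraries, against 1053 and 1829 bp in the OPC libraries, and the groups overlapped.

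In base pairs not scaled, the start regions themselves were narrower in both OL than in both OPC libraries at Ugt8a, Cers2, Degs1, Elovl1 and Elovl7. So was the region at the right end of Fa2h, whose strand was not given. This was looked at after the values were seen. The same order, also not scaled, held for 70.8% of 9697 shared regions over promoter windows. The start region was wider in both OL libraries at none of the 7 genes with a shared region over a promoter window, against 2.33% of those regions. In each line the OL list also covered less in total than the OPC list. After scaling, the groups overlapped at Elovl1, whose window held only this region. It had 1.18 and 1.02 scaled kb in the 129O1 and EpiSC5 OL libraries, against 1.35 and 1.04 in the OPC libraries. Scaled widths of the other start regions were not compared. Aspa had no shared region at its promoter window, which held 119 and 96 bp of peaks in the 129O1 and EpiSC5 OL libraries, against none in the 129O1 OPC library and 176 bp in the EpiSC5 OPC library.

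**Figure D5:**
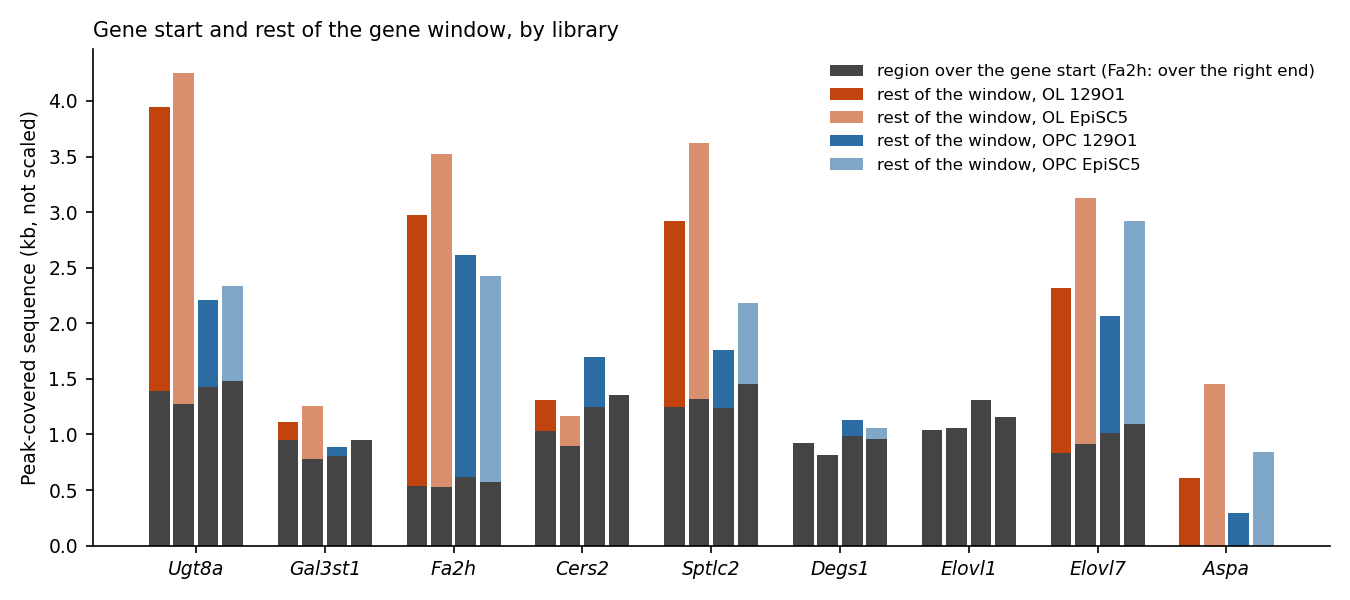
Peak-covered sequence in kb, not scaled (vertical axis), per library and gene, with the region over the gene start in grey and the rest of the gene window in colour, OL bars left of OPC bars. For Fa2h the grey part is the region over the right end of the interval. The coloured part is 2555 and 2975 bp in the OL libraries at Ugt8a, against 781 and 852 bp in the OPC libraries, while Elovl1 has only a grey part.

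Of 70 other genes in 6 lists of sphingolipid and related enzymes, 68 were tested in their gene windows, and 9 were higher and 6 lower in OL (limma, adjusted over all tested genes), against 11.0% and 8.63% of all tested genes. In the flanks 3 were higher and 4 lower of 69, where 9.2% and 10.0% of all tested genes were called. The higher flanks were those of Sgpp2, Slc25a12 and Slc25a1, and the lower were those of Samd8, Galc, Hacd4 and Elovl5. Apart from that of Samd8, each of these flank calls was lost when some library was left out. The medians of the 6 lists in the gene windows lay between -0.16 and 0.19 on the log2 scale, beside -0.02 for all tested genes. Of the 13 gene-window calls that the naming rule takes, 7 were lost when some library was left out and 6 held whichever library was left out.

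Among the 8 tested genes for sphingoid base synthesis, the only call was Sptlc3, and it was lower. Sptlc3 encodes a subunit of serine palmitoyltransferase that is an alternative to that of Sptlc2. Sptlc3 held 0.716 and 1.05 scaled kb in the 129O1 and EpiSC5 OL libraries, against 1.90 and 1.88 in the OPC libraries of 129O1 and EpiSC5, a log2 difference of -0.96 with a limma adjusted p of 0.000859. Thus Sptlc2 was higher and Sptlc3 lower in OL, each without overlap between the groups. Among 5 other ceramide synthases, Cers5 was the only call. It held 2.72 and 2.45 scaled kb in the OL libraries, against 1.32 and 1.504 in the OPC libraries, a log2 difference of 0.79 with a limma adjusted p of 0.0017.

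Of 11 other genes of fatty acid elongation, Hacd2 and Hsd17b12 were higher and Hacd4 was lower, and all 3 lost the call without some library. Of 13 genes for sphingomyelin and glucosylceramide, Gltp, which carries glycolipids between membranes, and Samd8 were higher and Sgms2, a sphingomyelin synthase, was lower. The flanks of Samd8 were lower, with a log2 difference of -0.62 and a limma adjusted p of 0.00505. The call at Sgms2 was lost without the EpiSC5 OL library (limma adjusted p of 0.336) or the 129O1 OPC library (0.175) and was kept in 3 of 13 other settings. Gltp held 3.20 and 2.92 scaled kb in the 129O1 and EpiSC5 OL libraries, against 1.36 and 1.74 in the OPC libraries of 129O1 and EpiSC5, a log2 difference of 0.90 with a limma adjusted p of 0.000733. Of 22 genes for sphingolipid breakdown 4 were higher and 2 lower. Asah1, the acid ceramidase, held 2.98 and 2.85 scaled kb in the OL libraries, against 1.54 and 1.56 in the OPC libraries, a log2 difference of 0.83 with a limma adjusted p of 0.000875. The window calls at Sptlc3, Cers5, Gltp and Samd8 were lost with no scaling, with the number of peaks and with only the sequence around summits. That at Asah1 was lost with no scaling and with the number of peaks. Sgpp2, a phosphatase of sphingosine phosphate, was lower with a log2 difference of -1.07 and a limma adjusted p of 0.00248, a call kept in 7 of 13 other settings, while its flanks were higher by 0.95. The flank call at Sgpp2 was lost without the 129O1 OL library (limma adjusted p of 0.0812) or the EpiSC5 OL library (0.121). Of 9 genes that make or use N-acetylaspartate and acetate, the partners of Aspa, Slc13a3 was the only call and was lower, and it was lost without the 129O1 OL library (limma adjusted p of 0.1602) or the EpiSC5 OPC library (0.224).

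For comparison, of 28 genes of cholesterol and fatty acid synthesis 2 were higher and 3 lower in the gene windows, with a median log2 difference of 0.05. Of 12 tested genes of myelin structural proteins 5 were higher, against 11.0% of all tested genes, with a median of 0.44 beside the 0.41 of the 9 lipid enzymes. In the flanks of 14 tested myelin genes 5 were higher and 1 lower, with a median of 0.0037 beside the 0.51 of the 9 enzymes. Whether the lists differ from each other was not tested.

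The genes whose 4 values, centred on their mean log2 level, came closest to those of Ugt8a included Erlin1 and Fam177a, at Euclidean distances of 0.0202 and 0.0378 on the log2 scale. For Sptlc2 they were Depdc5, Aggf1 and Tnn, at 0.0174, 0.0315 and 0.0385. For Aspa they were Galnt6, Nell1 and Dnajc15, at 0.140, 0.157 and 0.169. Within a distance of 0.1 lay 30 tested genes for Ugt8a, 31 for Sptlc2 and none for Aspa.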

How the data were processed

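The authors deposited 1 list of MACS2 peaks per library, so peaks were called per library. The submitters' processing notes name Bowtie2 2.3.2, Trim Galore 0.3.1, MACS2 and Picard, and the genome build mm10. The handling of duplicates, the shift of reads for the Tn5 cut and the peak threshold are not given in the labels. A deposited peak carries a score, 10 times its −log10 q and whole, then a fold over background (linear), −log10 p and −log10 q. These are the authors' own values and were used within a list only. The lowest −log10 q per list was 3.003 to 3.034. Without read counts in the lists the depth is unknown, and no interval for counting error is given.

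From the deposited peaks, covered base pairs were summed per window with Python 3.11.15, scaled to the mean list total and put on a log2 scale with 200 bp added; genes with a mean under 500 bp were dropped. A fold on this scale is too small for genes with low coverage. OL was compared with OPC over all protein-coding genes by limma 3.58.1 in R 4.3.3 (two-sided, with a mean-variance trend; p adjusted by Benjamini and Hochberg, threshold 0.05), which was tested on simulated data. Gene intervals and promoter windows came from RefSeq tables of GRCm38.p6, which held no exons, introns or UTRs. A region counted in a window at an overlap of 1 bp. Planned protein comparisons and sequences of peak regions were not run, as the tables used hold neither.

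The genes named are the 9 members, up to 4 genes past the threshold of each pathway list, neighbours in the windows or flanks, and for the 3 members with the largest differences the 3 most similar genes, of which 1 is not reported here. Members, lists and rules were chosen with earlier results of these data known. Libraries of the same cell line share a replicate number, so the line pairs them: over genes, deviations from the group means correlated by 0.287 (windows) and 0.252 (flanks) between libraries of a line. The alternatives tried were other scalings, added base pairs, filters, peak measures, window sizes, the line as a block, and each library left out.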

Additional observations from a re-analysis of the deposited data

Results flagged for a closer look

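In the flanks of Sptlc2 the lines went opposite ways: the log2 difference, OL minus OPC, was -0.0206 in 129O1 and 0.19 in EpiSC5. In the flanks of Aspa it was 0.66 in 129O1 and -0.00492 in EpiSC5. With 1 library per line and cell type the difference between the lines was not tested. The lines had opposite signs in 23.8% of all genes tested in their flanks.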

How the results depend on the processing

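Of the calls on the 9 genes, Ugt8a and Sptlc2 in the gene windows and Elovl7 in the flanks held whichever library was left out. Over all genes, 2857 gene windows were called, against 583 with no scaling, 221 with the number of peaks, 1631 with the best 50% of peaks by q and 742 with 200 bp around summits. In the flanks 3384 were called, against 1978 with no scaling, 607 with the number of peaks, 1883 with the best 50%, 1387 around summits, 1987 with no trend and 2032 with the sequence of other genes left out. Leaving out each library in turn gave 2017 to 2299 calls in the windows and 1386 to 3423 in the flanks. With the cell line as a replicate block 2922 windows and 5548 flanks were called, and Fa2h (lost) and Aspa (gained) were the members whose window calls it changed. The share of calls higher in OL was 56.1% in the windows and 47.8% in the flanks, and 33.8% and 23.7% with no scaling.

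The sign turned in members without a call and in Sphk1, another gene called lower in its window (-0.70). With a library left out, Cers2 windows ranged from -0.33 to 0.069 (0.04 without the EpiSC5 OL library, 0.069 without the 129O1 OPC library), Elovl1 windows from -0.26 to 0.066 (without the 129O1 OPC library), Sptlc2 flanks from -0.0034 (without the EpiSC5 OPC library) to 0.17 and Aspa flanks from -0.038 (without the 129O1 OPC library) to 0.70. By number of peaks, Elovl1 windows became 0.64, Fa2h flanks 0.070 and Sphk1 windows 0.21, and around summits Fa2h flanks became 0.064 and Sphk1 windows 0.19. With other genes left out Fa2h flanks became 0.54 and Sptlc2 flanks -0.027. Sptlc2 flanks also became -0.029 with no scaling, -0.0056 with lists of equal length and -0.12 with 20 kb flanks. The cause was not tested.

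Among the best 50% of peaks the 9 genes had 9 OL-only (20.9%) and 3 OPC-only regions (6.98%) in the windows. In all gene windows the shares were 16.9% and 8.86%. The flanks of the 9 genes held 19 OL-only and 19 shared regions at this setting. Asking a library's peaks to cover 50% of a region gave 5 OPC-only regions in the windows and 10 in the flanks. The 5 were 5.21% of the window regions, against 10.6% in all gene windows. With a library left out there were 27 to 45 OL-only and 8 to 22 OPC-only regions in the windows. The flanks held 33 to 49 and 8 to 15, as fewer libraries then decide. In the windows the OL-only share was 32.9% to 47.4%, against 20.8% to 30.9% in all gene windows. The OPC-only share was 8.42% to 24.2%, against 11.1% to 21.5%. Shares for the flanks were not computed at these settings. Promoter windows with no peak numbered 3, in place of 1, with an overlap of 150 bp or with the best 50% of peaks. With unknown depth, a missing peak cannot be told apart from too few reads.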
